A study of Mus musculus with 6 samples.

Results

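The oligoadenylate synthetases were followed in murine bone marrow–derived macrophages. The members were the 7 genes *Oas1a*, *Oas1b*, *Oas1g*, *Oas2*, *Oas3*, *Oasl1*, and *Oasl2*, taken by gene name from the annotation of the array, out of 34787 gene names in all. They were measured by 11 probes, each printed as 1 spot per array: 3 for *Oas1b*, 2 each for *Oas1a* and *Oas1g*, and 1 for each of the others. The macrophages came from wild-type female C57/B6 mice and were grown from bone marrow for 7 days in L929-conditioned medium. The 3 groups were cells left untreated, cells given LPS for 4 h, and cells given 10 μM HBX41,108, an inhibitor of the deubiquitinase USP7, for 30 min before the same LPS stimulus (LPS+USP7i). The series description and the paper state an LPS dose of 100 ng/ml, the treatment label another unit, and the labelled age of 6 to 8 weeks is lower than the age in the paper. Each group had 2 arrays from independent experiments. Neither source says whether the untreated and LPS cells received the solvent of the inhibitor, so solvent and inhibitor cannot be told apart. HBX41,108 was given with LPS in every inhibitor sample, and no group received the inhibitor alone.

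Oligoadenylate synthetases are enzymes of the interferon response. They bind double-stranded RNA, a sign of virus infection, and join ATP into short chains with 2′-5′ bonds (2-5A), which lead to the cutting of cellular and viral RNA. In macrophages, LPS engages TLR4, TLR4 signalling through the adaptors Ticam1 and Ticam2 leads to secretion of interferon-β, and interferon-β acts back on the cells through a receptor and transcription factors such as Stat2 and Irf9, which bind interferon-stimulated response elements in the promoters of such genes. Oas1a and Oas1g are small synthetases of the Oas1 cluster, Oas2 and Oas3 carry repeated copies of the synthetase unit, and Oasl1 and Oasl2 end in ubiquitin-like domains. Oas1b is known for resistance to flaviviruses, and common laboratory mouse strains carry a truncated form of it.

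All 7 genes lie on chromosome 5. The promoter windows of *Oas1a*, *Oas1g*, *Oas3*, *Oasl1*, and *Oasl2* were available from RefSeq (build GRCm38.p6, 250 bases before to 50 bases after 1 annotated start of each gene). A stretch of 120 bases upstream is shown for each because these genes share induction by interferon. Capitals mark matches to GAAANNGAA, the core of interferon-stimulated response elements, with N for any base. The stretches are written 5′ to 3′ on the strand of the gene.
*Oas1a*, chr5:120907526-120907645, minus strand: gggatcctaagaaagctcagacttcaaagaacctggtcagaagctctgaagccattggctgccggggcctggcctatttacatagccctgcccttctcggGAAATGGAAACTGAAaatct
*Oas1g*, chr5:120887614-120887733, minus strand: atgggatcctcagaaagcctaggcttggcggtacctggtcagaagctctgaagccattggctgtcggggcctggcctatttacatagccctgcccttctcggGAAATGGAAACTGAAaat
*Oas3*, chr5:120777660-120777779, minus strand: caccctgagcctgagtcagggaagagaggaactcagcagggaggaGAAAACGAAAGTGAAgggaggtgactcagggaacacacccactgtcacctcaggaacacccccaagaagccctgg
*Oasl1*, chr5:114923023-114923142, plus strand: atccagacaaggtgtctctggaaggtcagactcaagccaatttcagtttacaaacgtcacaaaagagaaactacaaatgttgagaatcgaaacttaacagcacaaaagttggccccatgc
*Oasl2*, chr5:114896814-114896933, plus strand: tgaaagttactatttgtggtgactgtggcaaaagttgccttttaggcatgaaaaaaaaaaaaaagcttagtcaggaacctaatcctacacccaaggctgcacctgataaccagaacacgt

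The windows of *Oas1a*, *Oas1g*, and *Oas3* each held 2 matches to the interferon core on the plus orientation, which overlapped by their last and first 3 bases. In *Oas1a* the matches began 20 and 14 bases before the start, in *Oas1g* 18 and 12 bases, and in *Oas3* 75 and 69 bases. Such a match on either strand was found in 3 of these 5 windows and in 8.56% of the 32851 promoter windows of all genes. The windows of *Oasl1* and *Oasl2* held none. The gamma-activated site TTCNNNGAA was matched in 1 of 5 windows, that of *Oas1a*, 98 bases before the start, and in 8.3% of all windows. The NF-κB core GGGANTTTC was matched in 0 of 5 and in 1.11% of all. Over their aligned windows *Oas1a* and *Oas1g* were identical at 85.3% of positions, whereas the other pairs of members ranged from 42% to 48%. The outermost annotated start of *Oasl1* lay 97 bases further upstream, so its printed stretch ends there. For *Oas1a*, *Oas3*, and *Oasl2* that start lay 19, 25, and 8 bases upstream. A match is a description of letters in these windows, and no binding was measured.

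**Figure D1:**
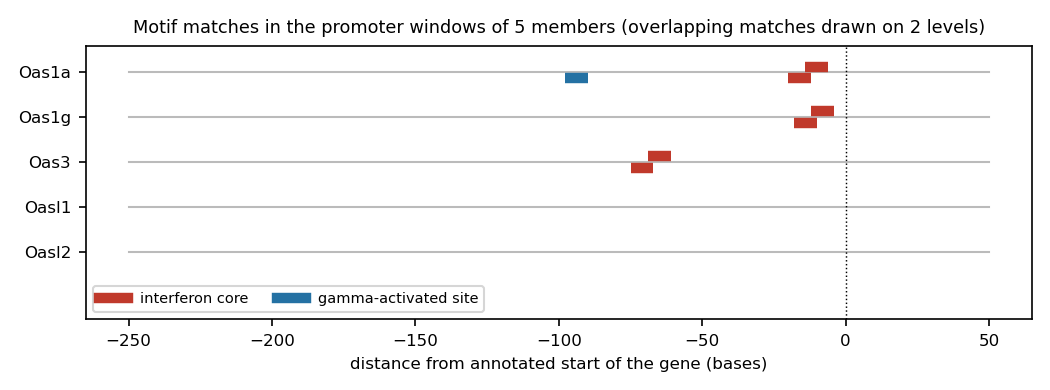
Matches of 2 motifs in the promoter windows of 5 members, by distance in bases from the annotated start of each gene (dotted line). The paired red bars are the overlapping interferon cores of *Oas1a*, *Oas1g*, and *Oas3*, the blue bar is the gamma-activated site of *Oas1a*, and the windows of *Oasl1* and *Oasl2* are empty.

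Probes of this family can share sequence, which bears on which gene a signal belongs to. The *Oas1a* probe with the higher mean signal (A_55_P1998943, mm9 chr5:121346735-121346794) is listed by the array for transcripts of both *Oas1a* and *Oas1g*, as is the *Oas1g* probe A_55_P1998979 (chr5:121326271-121326330). The *Oas1a* probe was also identical to the *Oas1f* probe at 41 of 58 aligned bases. A stretch of both is shown, with the 5 bases in 30 that differ in capitals.
*Oas1a* A_55_P1998943: tgtccacctgttggAaggttctgtcTGaCA
*Oas1f* A_51_P154842: tgtccacctgttggGaggttctgtcCAaTG
Of the *Oas1b* probes, A_55_P1998962 (chr5:121274109-121274168) and A_55_P1959061 (chr5:121274126-121274185) overlap on the genome and share a run of 42 bases, the start of which is in capitals below. The probe A_55_P1959064 (chr5:121273890-121273949) lies outside that overlap and is the *Oas1b* probe listed with its RefSeq transcript.
*Oas1b* A_55_P1998962: actTCTGAACCTGTAAGCCAACCCCAATTA
*Oas1b* A_55_P1959061: gTCTGAACCTGTAAGCCAACCCCAATTAAA
*Oas1b* A_55_P1959064: cagaaggagaatattatggtttgtatatgg
Probe positions are those of the array files in build mm9, and no exon annotation of that build was used here.

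RNA from each sample was labeled with Cy3 and hybridized to a 1-color array with 59305 spots that were not controls, of which between 25002 and 27467 were well above background. All 6 arrays lay on a single slide, where each treatment had a row of its own and each replicate number a column of its own, so slide row and treatment cannot be told apart. Macrophage identity was checked with 9 markers such as *Csf1r*, *Cd68*, and *Mertk*, all 9 of them well above background on all 6 arrays. With the inhibitor relative to LPS, 2 of the 9 were lower and 0 higher, against 4.27% and 5.52% of all genes. These 2 were *Cd14* at −1.31 (limma adjusted p = 0.0184) and *Fcgr1* at −1.60 (limma adjusted p = 0.0317). *Mertk* differed by −1.20 (limma adjusted p = 0.136), and the median of the 9 was −0.22. Of 22 markers of T, B, NK, dendritic, erythroid, and fibroblast cells and neutrophils, 7 were well above background on every array and 6 on none (among them *Cd3g*, *Col1a1*, *Col3a1*, *Flt3*, and *Pdgfra*), and their summed level ranged from 15.39 to 15.61 (log2) in untreated, 14.86 to 14.89 in LPS, and 15.29 to 15.80 in LPS+USP7i cells. *Siglech*, between 14.59 and 15.65 at its brightest probe, carried most of that sum. Its other probes were near background, with means of 4.30 and 3.14 in LPS cells, so that level depends on the probe. The median difference of the 22 markers was 0.45 with LPS and −0.39 with the inhibitor relative to LPS, the same signs as in the synthetases. By cell type the medians were 1.01 and −0.65 for 4 neutrophil, 0.86 and −0.75 for 3 B cell, and 1.27 and −0.90 for 2 NK cell markers. They were 0.60 and −0.43 for T cell, 0.28 and −0.36 for dendritic cell, 0.019 and −0.029 for erythroid, and 0.22 and 0.045 for fibroblast markers. Single markers went either way, with −0.73 and 0.75 for *Siglech* at its brightest probe and −0.42 and 0.62 for *Elane*, a neutrophil marker. Of these 22 markers, 1 differed between groups (*Zbtb46*, higher in both stimulated groups than in untreated cells). Over all genes 7.98% were higher with LPS and 6.16% with LPS+USP7i than in untreated cells. The part of these markers in the results below was not tested. *Usp7*, the gene of the inhibitor's target, had values of 11.95 and 11.98 in untreated, 12.41 and 12.40 in LPS, and 12.11 and 12.43 in LPS+USP7i cells, and did not pass the threshold in any comparison. Its LPS difference of 0.44 (adjusted p = 0.104) passed under 75th percentile scaling (0.80, adjusted p = 0.0211), with normexp background correction (0.0269), and in the fit of the 2 groups alone (0.0286), and LPS+USP7i against untreated cells passed without LPS+USP7i replicate 1 (0.0484). The inhibitor acts on the enzyme, so this transcript does not test its action.

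The values below are log2 signals after quantile normalization, given as replicate 1 and replicate 2, and differences are on the same log2 scale with the standard error (SE) of a limma fit to all 6 arrays. Benjamini-Hochberg adjustment ran over 55680 probes, and a gene passed at an adjusted p under 0.05. Levels are not compared between probes. In whole cultures, fewer responding cells and less RNA per cell cannot be told apart.

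LPS raised 5 of the 7 genes relative to untreated cells (*Oas1a*, *Oas1g*, *Oas2*, *Oasl1*, and *Oasl2*) and lowered 0 in the limma fit, against 7.98% higher and 12.8% lower over all 34786 genes tested. At an unadjusted p under 0.05, 6 members were higher and 1 lower, against 12.5% and 20.6% of all genes. The median difference of the 7 genes was 1.21, against 0.0016 over all genes. In 6 of the 7 genes both LPS arrays were above both untreated arrays, as they were in 31% of all genes, and the exception was *Oas1b*. With the inhibitor, 1 gene was lower than with LPS alone (*Oas1a*) and 1 was higher (*Oas1b*), against 4.27% and 5.52% of all genes. The median difference of the 7 genes was −0.70, against 0.00092 over all genes. In 6 of 7, again without *Oas1b*, both LPS+USP7i arrays lay below both LPS arrays, as in 25.3% of all genes, and 5 of these 6 genes did not pass the adjusted threshold. At an unadjusted p under 0.05, 5 of the 7 were lower and 1 higher, against 11.7% and 14.3% of all genes. In LPS+USP7i compared with untreated cells, 2 genes were higher (*Oas1g* and *Oasl1*) and 0 lower in the limma fit, against 6.16% and 8.71% of all genes, with a median of 0.47 against −0.0021. At an unadjusted p under 0.05, 3 were higher and 0 lower, against 12.2% and 16.6%. In 4 of 7 genes both LPS+USP7i arrays were above both untreated arrays, as in 28.9% of all genes, the exceptions being *Oas1a*, *Oas3*, and *Oasl2*. The 3 comparisons share arrays and are not independent of each other.

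The counts moved with the replicate block, with the scaling, with single arrays, and with other settings. With normexp background correction 4 of 7 were lower with the inhibitor (6.83% of all genes), as were 4 without dim probes (12.9% of the genes left). With the mean of all probes 0 were lower (4.64% of all genes), and in the fit of the 2 groups compared 0 of all genes passed for the inhibitor. With the replicate number, which is also the slide column, as a block in the limma fit, 5 of 7 genes were lower with the inhibitor than with LPS (*Oas1a*, *Oas1g*, *Oas2*, *Oas3*, and *Oasl2*), against 3.23% of all genes. In that fit 6 of 7 were higher with LPS, with *Oas3* added, against 8.43% of all genes, and 4 of 7 were higher in LPS+USP7i than in untreated cells, with *Oas1b* and *Oas2* added, against 6.36%. Under 75th percentile scaling, which raises the median difference of all genes by 0.40 for LPS and 0.44 for LPS+USP7i relative to untreated cells, 7 of 7 genes were higher with LPS, against 34.9% of all genes, 5 of 7 were higher with LPS+USP7i than in untreated cells, against 35%, and 3 of 7 were lower with the inhibitor than with LPS, against 4.07%. That scaling also moved the whole comparison of LPS with untreated cells from 2775 genes higher and 4443 lower to 12150 higher and 4048 lower, and that of LPS+USP7i with untreated cells from 2144 higher and 3031 lower to 12182 higher and 3354 lower. When any 1 of the 4 LPS and LPS+USP7i arrays was left out, limma called between 1.69% and 3.41% of all genes and 0 of 7 members lower with the inhibitor, while 3 to 5 of 7 were lower at an unadjusted p under 0.05. Without an untreated array 0 of all genes passed for the inhibitor, so those fits say nothing about single calls. When any 1 of the 6 arrays was left out, 2 or 3 of 7 members passed as higher with LPS, against between 3.27% and 7.43% of all genes.

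**Figure D2:**
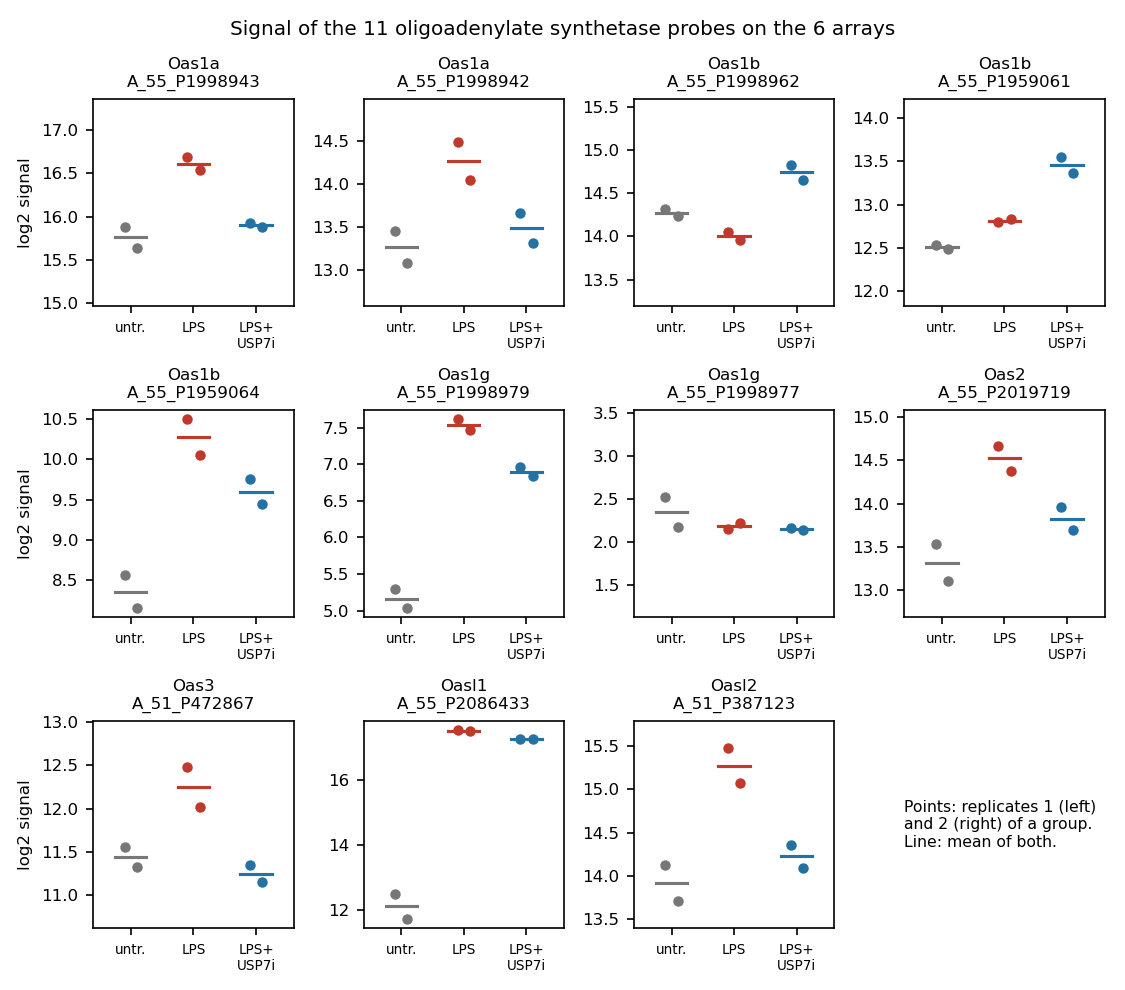
Log2 signal of the 11 member probes on the 6 arrays, with the replicates as points and the group mean as a line, each panel with an axis of its own. In *Oas1a*, *Oas3*, and *Oasl2* the LPS arrays were highest and the LPS+USP7i arrays overlapped the untreated arrays, in *Oas2* the LPS+USP7i arrays lay between the other groups, in *Oasl1* both stimulated groups were near 17, and the 3 *Oas1b* probes differ in pattern.

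*Oas1a*, a small synthetase of the Oas1 cluster, had signals of 15.88 and 15.64 in untreated, 16.68 and 16.54 in LPS, and 15.93 and 15.88 in LPS+USP7i cells at its brighter probe. The LPS arrays were above all others, and the inhibitor arrays overlapped the untreated arrays. LPS raised *Oas1a* by 0.85 (SE 0.11, adjusted p = 0.0170 from limma), a 1.80-fold change, which was lost without untreated replicate 2 or either LPS array (adjusted p from 0.0541 to 0.0766). With the inhibitor it fell by 0.71 (SE 0.11, adjusted p = 0.0442), a 1.63-fold decrease. This call was lost when any 1 of the 4 arrays compared was left out (adjusted p from 0.105 to 0.149), with the authors' normalized values (0.0975), and with the mean of both probes (0.0749). It differed by 0.14 between LPS+USP7i and untreated cells (95% interval −0.17 to 0.46, adjusted p = 0.566). The second *Oas1a* probe (A_55_P1998942, chr5:121348338-121348397), listed for *Oas1a* alone, had 13.45 and 13.09 in untreated, 14.48 and 14.05 in LPS, and 13.66 and 13.32 in LPS+USP7i cells. It showed the same order of groups, with differences of 0.997 (SE 0.24, adjusted p = 0.0666) for LPS and −0.78 (SE 0.24, adjusted p = 0.158) for the inhibitor, and passed in neither.

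*Oas1g*, the close paralog of *Oas1a*, was dim in untreated cells and had signals of 5.29 and 5.04 there, 7.62 and 7.47 in LPS cells, and 6.96 and 6.84 in LPS+USP7i cells. The 3 groups were in the order untreated, LPS+USP7i, LPS with no overlap. LPS raised it by 2.38 (SE 0.12, adjusted p = 0.00351), a 5.20-fold change, and it was still 1.74 above untreated cells with the inhibitor (SE 0.12, adjusted p = 0.00769). The difference between LPS+USP7i and LPS was −0.64 (SE 0.12, adjusted p = 0.0625) and did not pass, although it did with the replicate block (0.0459), with normexp background correction (0.0264), and with dim probes left out (0.0308). Both differences from untreated cells passed when any 1 array was left out. They were smaller with normexp background correction, at 1.35 and 0.92, and with the mean of both probes, at 1.11 and 0.77. The signals above are those of A_55_P1998979, which the array lists for both *Oas1a* and *Oas1g*. The other *Oas1g* probe (A_55_P1998977, chr5:121326151-121326210), the one listed for *Oas1g* alone, was well above background on 0 of 6 arrays. Which of these genes the rise belongs to was not tested.

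*Oas1b* did not share this pattern at the probe with the highest mean signal, A_55_P1998962, which gave 14.31 and 14.23 in untreated, 14.05 and 13.95 in LPS, and 14.83 and 14.65 in LPS+USP7i cells. The inhibitor arrays were highest and the LPS arrays lowest, with no overlap. The difference for LPS was −0.27 (SE 0.09, adjusted p = 0.149), which became 0.29 under 75th percentile scaling (adjusted p = 0.0444), and LPS+USP7i was 0.74 above LPS (SE 0.09, adjusted p = 0.0278), a 1.67-fold increase. This call was lost without either LPS array or LPS+USP7i replicate 1 (adjusted p from 0.0696 to 0.0968) and with the authors' normalized values (0.0826), and the mean of the 3 probes gave 0.24 (adjusted p = 0.384). The overlapping probe A_55_P1959061 had 12.53 and 12.49 in untreated, 12.79 and 12.83 in LPS, and 13.55 and 13.37 in LPS+USP7i cells. There the inhibitor arrays were again highest, 0.65 above LPS (SE 0.09, adjusted p = 0.0313) and 0.95 above untreated cells (SE 0.09, adjusted p = 0.0110), while LPS differed from untreated by 0.30 (adjusted p = 0.103).

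The third *Oas1b* probe, A_55_P1959064, which the array lists with the RefSeq transcript of the gene, had 8.56 and 8.15 in untreated, 10.50 and 10.05 in LPS, and 9.76 and 9.44 in LPS+USP7i cells. Its groups were in the order of those of *Oas1g* and *Oas2*, and did not overlap. LPS raised it by 1.93 (SE 0.25, adjusted p = 0.0151), a 3.80-fold change, and LPS+USP7i differed from LPS by −0.68 (95% interval −1.36 to 0.0027, adjusted p = 0.221). The direction of *Oas1b* in either comparison therefore depends on the probe: the LPS difference was −0.27, 0.30, or 1.93, and the inhibitor difference 0.74, 0.65, or −0.68, in the order described. RefSeq lists *Oas1b* in the C57BL/6J assembly as a transcribed pseudogene. Which transcripts the first pair of probes measures was not tested.

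*Oas2*, a larger synthetase with repeated units, was measured by 1 probe (A_55_P2019719, chr5:121180343-121180402), with 13.53 and 13.10 in untreated, 14.66 and 14.38 in LPS, and 13.96 and 13.69 in LPS+USP7i cells. The groups did not overlap, and those with the inhibitor lay between the other two. LPS raised *Oas2* by 1.21 (SE 0.21, adjusted p = 0.0312), a 2.31-fold change, which was lost when any array was left out (adjusted p from 0.0593 to 0.126). The inhibitor difference was −0.70 (95% interval −1.28 to −0.12, adjusted p = 0.154), and passed with the replicate block (adjusted p = 0.0459). With the block *Oas2* was also higher in LPS+USP7i than in untreated cells, by 0.51 (adjusted p = 0.0466).

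*Oas3*, the largest synthetase of the family, had 11.56 and 11.33 in untreated, 12.48 and 12.02 in LPS, and 11.35 and 11.15 in LPS+USP7i cells (A_51_P472867, chr5:121203598-121203657). The LPS arrays were highest, and the inhibitor arrays overlapped the untreated ones and had the lower mean. Neither the LPS difference of 0.81 (SE 0.20, adjusted p = 0.0735) nor the inhibitor difference of −1.01 (SE 0.20, adjusted p = 0.0672) passed. Both passed with the replicate block (adjusted p = 0.0283 and 0.0426), with normexp background correction, with the authors' normalized values, with dim probes left out, and under 75th percentile scaling (adjusted p from 0.00841 to 0.0491), and the inhibitor difference also with a trended prior (0.0480).

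*Oasl1*, a synthetase-like protein without synthetase activity that is known to hold back translation of the *Irf7* transcript, had 12.48 and 11.71 in untreated, 17.54 and 17.52 in LPS, and 17.26 and 17.28 in LPS+USP7i cells (A_55_P2086433, chr5:115387861-115387920). Both stimulated groups were far above untreated cells, and the inhibitor arrays were slightly below the LPS arrays. LPS raised *Oasl1* by 5.43 (SE 0.28, adjusted p = 0.00343), a 43.2-fold change and the largest of the 7. It was still 5.17 above untreated cells with the inhibitor (adjusted p = 0.00579), a 36.1-fold change. The difference between LPS+USP7i and LPS was −0.26 (95% interval −1.02 to 0.50, adjusted p = 0.677).

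*Oasl2*, which has both synthetase activity and the ubiquitin-like domains, had 14.12 and 13.71 in untreated, 15.48 and 15.07 in LPS, and 14.36 and 14.09 in LPS+USP7i cells (A_51_P387123, chr5:115362168-115362227). The LPS arrays were highest, and the inhibitor arrays overlapped the untreated arrays. LPS raised *Oasl2* by 1.36 (SE 0.23, adjusted p = 0.0291), a 2.57-fold change, which was lost when any array was left out (adjusted p from 0.0614 to 0.114). The inhibitor difference was −1.05 (SE 0.23, adjusted p = 0.0805), the largest decrease among the 7 genes, and passed with the replicate block (adjusted p = 0.0369), with normexp background correction (0.0181), with dim probes left out (0.0243), and under 75th percentile scaling (0.0344). LPS+USP7i and untreated cells differed by 0.31 (95% interval −0.33 to 0.95, adjusted p = 0.542).

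**Figure D3:**
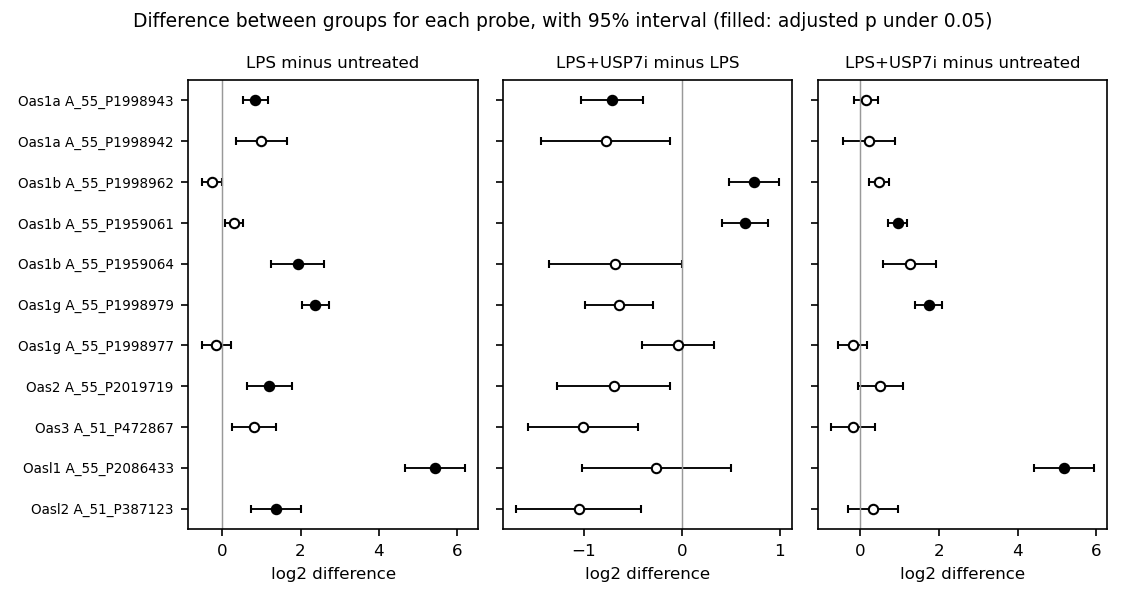
Log2 difference between groups for each of the 11 probes, with the 95% interval of the limma fit, and filled points where the adjusted p was under 0.05. Every interval of *Oasl1* relative to untreated cells lies above 4, and the first 2 *Oas1b* probes are the points to the right of 0 in the middle panel.

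Set against all genes, the members other than *Oas1b* and *Oasl1* had LPS differences from 0.81 to 2.38 and inhibitor differences from −1.05 to −0.64. *Oasl1* stood to the right of them at an LPS difference of 5.43. Both differences use the same LPS arrays, so no relation between them is drawn.

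**Figure D4:**
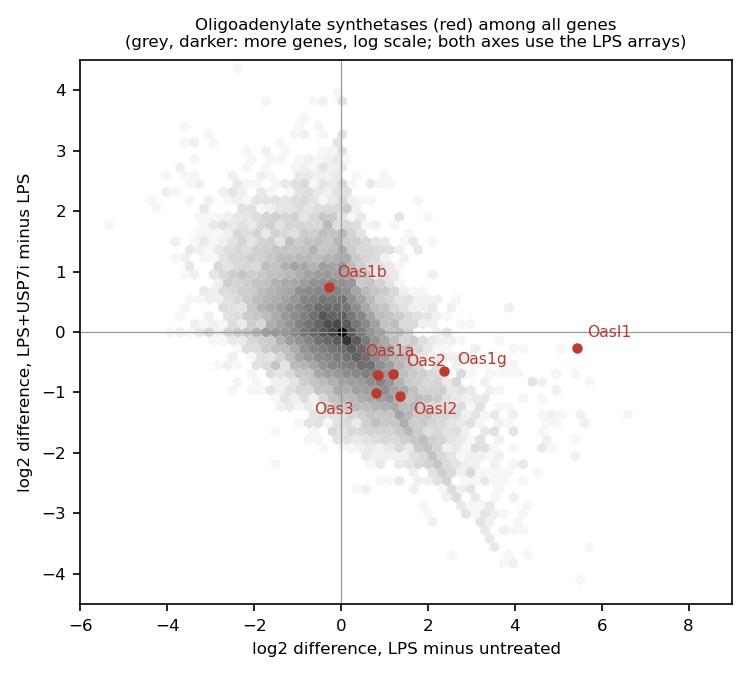
Log2 difference with LPS (horizontal) and with the inhibitor relative to LPS (vertical) for 34786 genes in grey, of which 41 lie outside the axes, with the 7 members in red. *Oas1b* is the member to the left of 0 and above it, by its probe with the highest mean signal.

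Of the other Oas1 paralogs, a list of 5 genes, 1 passed in any comparison, as higher with LPS, against 7.98% of all genes. *Oas1c* was raised by LPS (0.61, adjusted p = 0.0460), and none of *Oas1d*, *Oas1e*, *Oas1f*, and *Oas1h* passed in any of the 3 comparisons. *Oas1f*, singled out because its probe resembles that of *Oas1a*, had 14.33 and 13.97 in untreated, 15.18 and 14.83 in LPS, and 14.40 and 14.35 in LPS+USP7i cells, the same order of groups as the *Oas1a* probe with which it shares sequence. Its LPS difference of 0.85 had an adjusted p of 0.0517. *Oas1h* was well above background on 0 of 6 arrays.

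The genes that act beside the synthetases were a list of 15, the 5 paralogs among them. With LPS 8 of 15 were higher and 2 lower (*Mavs* among them), against 7.98% and 12.8% of all genes. Their median was 0.77, against 0.0016 over all genes. With the inhibitor relative to LPS 3 were lower (*Ddx58*, *Dhx58*, and *Eif2ak2*) and 1 was higher, against 4.27% and 5.52% of all genes. The median there was −0.42, against 0.00092. With the replicate block 1 of 15 was lower with the inhibitor, against 3.23% of all genes. In LPS+USP7i relative to untreated cells 4 were higher and 1 lower (*Mavs*), against 6.16% and 8.71%.

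Among the sensors of double-stranded RNA, *Ifih1*, which encodes MDA5, had the largest LPS difference of that list, 4.00 (adjusted p = 0.00562), and differed by −1.38 with the inhibitor (adjusted p = 0.0821). Its dimmer probe passed, at −2.13 (adjusted p = 0.0418), so the call depends on the probe. *Eif2ak2*, the kinase PKR, had 10.33 and 10.10 in untreated, 13.04 and 12.94 in LPS, and 11.04 and 11.48 in LPS+USP7i cells, with no overlap between groups. It rose by 2.78 with LPS (adjusted p = 0.00458) and fell by 1.73 with the inhibitor (adjusted p = 0.0219), which was lost without either LPS array (0.0801 to 0.0914) and with the replicate block (0.0506). *Ddx58*, which encodes RIG-I, rose by 2.14 (adjusted p = 0.00852) and fell by 1.48 (adjusted p = 0.0343, or 0.0688 with the replicate block). *Pde12*, a phosphodiesterase that degrades 2-5A, was singled out after its values were seen and rose by 0.77 with LPS (adjusted p = 0.00891) and had an inhibitor difference of 0.32 (adjusted p = 0.0947).

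The route from LPS to the synthetases was covered by 18 genes of type I interferon production and signalling. LPS raised 11 of them and lowered 0, against 7.98% and 12.8% of all genes, with a median of 1.01. At an unadjusted p under 0.05 the counts were 12 and 1, against 12.5% and 20.6%. With the inhibitor 6 were lower than with LPS (*Ifnar1*, *Irf8*, *Ticam2*, *Tyk2*, and *Usp18* among them) and 0 higher, against 4.27% and 5.52%. The median there was −0.54, and unadjusted 10 were lower and 1 higher, against 11.7% and 14.3%. In LPS+USP7i relative to untreated cells 6 were higher and 5 lower, against 6.16% and 8.71%. *Ifnar1* is among the 5 lower by its brightest probe (−1.14, adjusted p = 0.0206), which differed by −0.17 with LPS. Its dimmer probes rose with LPS by 1.63 (adjusted p = 0.00463) and 1.83 (adjusted p = 0.00621). With the inhibitor they lay 0.51 (adjusted p = 0.0609) and 0.88 (adjusted p = 0.0362) above untreated cells. The *Ifnar1* calls relative to untreated cells therefore depend on the probe. *Ifnb1*, the gene of interferon-β, had 4.80 and 4.34 in untreated, 12.01 and 12.85 in LPS, and 12.87 and 12.52 in LPS+USP7i cells. Both stimulated groups were far above untreated cells and overlapped each other. The probe was well above background on 1 of 2 untreated arrays and on all others. LPS raised *Ifnb1* by 7.86 (SE 0.36, adjusted p = 0.00317), or by 5.80 with normexp background correction, and the inhibitor difference was 0.26 (adjusted p = 0.766), which became −0.15 without LPS replicate 1. *Ifna4* was well above background on 0 of 6 arrays.

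Downstream of the interferon receptor, *Stat2* had 13.05 and 12.73 in untreated, 13.98 and 13.87 in LPS, and 13.34 and 13.39 in LPS+USP7i cells, a rise of 1.04 with LPS (adjusted p = 0.0151) and an inhibitor difference of −0.56 (adjusted p = 0.0943). *Irf9*, the DNA-binding partner of Stat2, was between 12.60 and 13.09 on all 6 arrays and passed in no comparison of the main fit. Relative to untreated cells it passed in 1 of 15 alternative settings with LPS and in 1 of 15 with LPS+USP7i. *Irf7*, which amplifies interferon production, rose by 1.98 with LPS (adjusted p = 0.0301) and differed by −1.09 with the inhibitor (adjusted p = 0.162).

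Other genes of this list had larger differences. *Ticam2*, an adaptor of TLR4, rose by 1.65 with LPS (adjusted p = 0.0412), and with the inhibitor its probe was well above background on 0 of 2 arrays. The limma difference from LPS was −3.49 (adjusted p = 0.0183), computed from inhibitor signals that were not well above background. The background level of these arrays bounds the decrease at 7.87-fold or more with this normalization, and that bound was not tested. With normexp background correction the LPS rise was 0.97 and the inhibitor difference −1.53, a smaller change than that bound. With the replicate block the LPS rise of *Ticam2* had an adjusted p of 0.0637. *Irf8*, a transcription factor of myeloid cells, rose by 1.42 (adjusted p = 0.0267, or 0.0518 with the replicate block) and fell by 3.13 (adjusted p = 0.0144). *Usp18*, which restrains signalling at the interferon receptor, rose by 3.58 (adjusted p = 0.00438) and fell by 1.75 (adjusted p = 0.0298, or 0.0548 with the replicate block). *Socs1*, an inhibitor of JAK kinases, and *Irf1*, another interferon regulatory factor, rose by 7.45 (adjusted p = 0.00338) and 3.90 (adjusted p = 0.00446) with LPS, with inhibitor differences of −1.72 (adjusted p = 0.0784) and −0.51 (adjusted p = 0.371). The dimmer *Irf1* probe, well above background on 0 of 2 untreated arrays, passed for the inhibitor at −1.83 (adjusted p = 0.0120), so that call too depends on the probe. Of 9 inhibitor calls among the members and the other genes chosen by rule, 8 were lost without at least 1 of the 4 arrays compared (adjusted p from 0.0542 to 0.149), and that of *Irf8* was not. Of 18 LPS calls in the same genes, 8 passed whichever array was left out, those of *Oas1g*, *Oasl1*, *Ifnb1*, *Eif2ak2*, *Ifih1*, *Socs1*, *Irf1*, and *Usp18*. The other 10 calls were lost without at least 1 array (adjusted p from 0.0520 to 0.177).

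**Figure D5:**
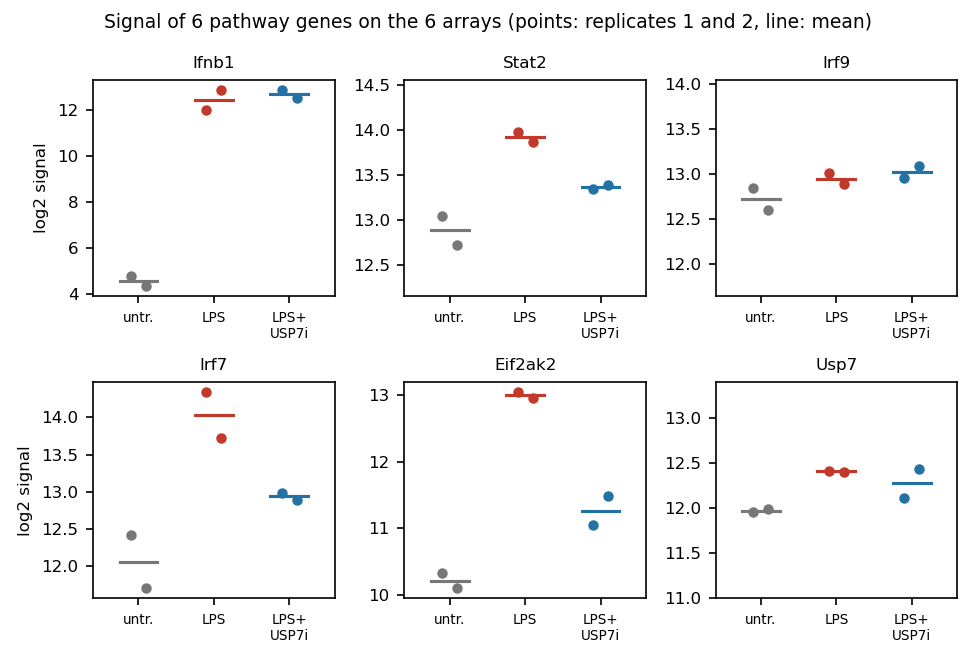
Log2 signal of 6 genes that act before or beside the synthetases on the 6 arrays, with the replicates as points and the group mean as a line. *Ifnb1* was near 12 in both stimulated groups, *Eif2ak2* was lower with the inhibitor than with LPS, and *Irf9* and *Usp7* stayed within narrow ranges.

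The genes most like the synthetases over the 6 arrays were sought among 12089 RefSeq-named genes well above background on both LPS arrays, by the root mean square distance from the mean profile of the 7 members, each centred on its own mean. The 5 nearest included *Crim1* (0.093), *Zfp263* (0.10), *Gm5067* (0.12), and *Traf2* (0.12). *Crim1*, a membrane protein that binds BMPs, had 7.10 and 6.81 in untreated, 8.69 and 8.59 in LPS, and 8.04 and 8.18 in LPS+USP7i cells. *Traf2*, an adaptor of TNF receptors, had 12.81 and 12.44 in untreated, 14.38 and 14.08 in LPS, and 13.87 and 13.99 in LPS+USP7i cells. These genes were chosen for this pattern on these arrays, so their differences are given with no test. Of the members themselves *Oas2* was nearest to their mean profile, at 0.28, and *Oasl1* farthest, at 1.84, so each of these 5 genes was nearer to the mean than any single member was. All 7 members entered that mean equally, *Oasl1* with its LPS difference of 5.43 among them. With the inhibitor, *Crim1* kept 68.9% and *Traf2* 81.0% of the log2 LPS rise. Among members, *Oas1a* kept 16.7%, *Oasl2* 22.8%, *Oas2* 42.3%, *Oas1g* 73.1%, and *Oasl1* 95.2%. Likeness to the mean is therefore not likeness to each member.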

How the data were processed

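RNA of 6 samples in 3 groups was measured on 1-color Agilent mouse arrays. The authors deposited scanner files with spot intensities, corrected for background by the scanner software (Feature Extraction 10.7.3.1, per the file headers), together with log2 values that they had normalized across the arrays. The submitters' processing notes name limma. Here the processed signal was quantile-normalized on the log2 scale over spots that were not controls, outlier spots were left out, and limma 3.58.1 (R 4.3.3) was fitted to all 6 arrays. The deposited table served as an alternative. A gene with several probes was counted by its brightest probe (highest mean log2 signal), and every member probe is given. Members, lists, named genes, and tests were chosen with earlier results of these data known. Named were all members, *Ifnb1*, *Stat2*, *Irf9*, *Irf7*, *Usp7*, the largest differences of each list among genes that passed, and the 5 genes nearest in profile; some of these genes are not reported here. The replicate numbers recur in the 3 groups, and no source says that a number marks a shared experiment. Replicate 1 deviations from the group means correlated with r = 0.47 between untreated and LPS, 0.40 between untreated and LPS+USP7i, and 0.42 between LPS and LPS+USP7i, over 20705 probes that are not independent, and the number coincides with the slide column. The fit with the number as a block is therefore given where it changes a call. The script was tested on simulated data. Protein identity between members, which had been planned, was not analysed here. The number of arrays limits the precision. Alternatives covered scaling, background, dim and outlier spots, prior, samples in the fit, replicate block, probes, size of change, and each array left out.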

Additional observations from a re-analysis of the deposited data

How the results depend on the processing

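The numbers in this paragraph are counts of genes that passed, or median log2 differences of the 7 synthetases. With 75th percentile scaling the medians were 1.73 (LPS minus untreated), −0.88 (LPS+USP7i minus LPS), and 0.80 (LPS+USP7i minus untreated), and 3 synthetases were lower with the inhibitor (4.07% of all genes). In LPS+USP7i 5 synthetases, 7 2-5A pathway genes, and 10 interferon pathway genes were higher than in untreated cells, as were 35% of all genes. With normexp the last 2 medians were −0.63 and 0.42, with 4 synthetases and 7 pathway genes lower with the inhibitor (6.83% of all genes). The authors' table gave −0.64 and 0.44. Without dim probes 4 synthetases and 6 pathway genes were lower with the inhibitor (12.9% of the 18327 genes left), and with a trended prior 2 synthetases (4.53%). Fits of only the 2 groups compared called 3 synthetases higher with LPS (7.43% of all genes) and 0 synthetases, 0 pathway genes, and 0 interferon genes lower with the inhibitor, where limma called 0 of all genes, although 8004 were under 0.05 before adjustment, against 9049 when all 3 groups were fitted. In LPS+USP7i against untreated cells those fits called 2 pathway and 3 interferon genes higher (3.87% of all genes). With the mean of all probes 0 synthetases (5 before adjustment) and 5 pathway genes were lower with the inhibitor (4.64% of all genes) and the last median was 0.51. With a log2 difference of at least 1 required, 5 pathway genes were higher with LPS and 0 synthetases lower with the inhibitor. That 0 followed from the rule, since *Oas1a*, the only synthetase called lower before, differed by −0.71. The share of all genes under this rule was not counted, so these counts show nothing particular to the lists. The alternative with *Oas1b* by its RefSeq-listed probe was chosen after seeing the data and gave medians of 1.36 and 0.51 relative to untreated cells.

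With each array left out in turn, 2 to 3 synthetases were higher with LPS, 0 to 0 lower with the inhibitor, and 2 to 2 higher in LPS+USP7i than in untreated cells. The medians ranged from 0.99 to 1.42, from −0.78 to −0.57, and from 0.30 to 0.56. 2-5A pathway counts ranged from 4 to 7 higher with LPS, 0 to 2 lower with the inhibitor, and 0 to 4 higher in LPS+USP7i than in untreated cells, and interferon pathway counts from 5 to 9, 0 to 4, and 2 to 4. Without an untreated array limma called 0 of all genes for the inhibitor. A group left with 1 array was assumed to vary like the others. The share of all genes that passed also changed with the array left out. The list counts alone therefore do not show a change particular to these lists.

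With the replicate block 5 synthetases (*Oas1a*, adjusted p = 0.0474, *Oas1g*, 0.0459, *Oas2*, 0.0459, *Oas3*, 0.0426, and *Oasl2*, 0.0369) and 1 pathway gene were lower with the inhibitor (3.23% of all genes). In LPS+USP7i 4 synthetases were higher than in untreated cells (6.36% of all genes), and 2549 of all genes passed for the inhibitor against 3404 without the block.

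Signs reversed in 8 of the single-gene values. *Oas1b* with LPS became 0.29 with 75th percentile scaling, 0.65 with the mean of its probes, and 1.93 with its RefSeq-listed probe, which gave −0.68 for the inhibitor. For the inhibitor, *Irf9* became −0.12 with 75th percentile scaling, *Ifnb1* −0.15 without LPS replicate 1 (0.68 without LPS replicate 2), and *Usp7* 0.026 without LPS+USP7i replicate 1 (−0.30 without LPS+USP7i replicate 2) and 0.0019 with the mean of its probes. Of the other single-gene values, 988 kept direction and side of the threshold, 54 newly passed, and 168 no longer passed. Apart from the choice of *Oas1b* probe, the cause of these changes was not tested.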
